A study of Mus musculus with 16 samples.

Results

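Transcripts of red blood cells and platelets were followed through sorted mouse liver cells, for 9 genes chosen by name: Hba-a1, Hbb-b1, Slc4a1, Gata1, Gata2, Klf1, Pf4, Ppbp and Gp9. All probes whose gene name on the array was one of these were taken, which gave 13 probes of the 41174 that were not controls. Hbb-b1 had 4 probes, Gata2 had 2, and each other gene had 1. Of the 9 genes, 7 passed the filter on dim probes and were tested among 23312 genes; Ppbp and Gp9 did not pass it.

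Samples were liver cells of c129/S3 mice on a Purina 5015 diet, sorted by flow cytometry on the antigen MIC1-1C3 (M), a surface mark of bile duct cells, and on CD133 (133), which Prom1 encodes. Double-positive cells (M+133+) were compared with double-negative cells (M-133-). The groups were M+133+ cells of livers treated with DDC (n = 4), M-133- cells of DDC-treated livers (n = 4), M+133+ cells of untreated livers (n = 4) and M-133- cells of untreated livers (n = 2). DDC (3,5-diethoxycarbonyl-1,4-dihydrocollidine) was given at 0.1% by weight in the diet for 2 weeks; it inhibits ferrochelatase, which puts iron into heme, and makes bile ductules multiply. The M-133- sort is a mixture defined by what it lacks, and per the labels all groups shared a preparation in which red cells of a non-parenchymal fraction were lysed in dilute salt before the sort.

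Hemoglobin of adult mice is a tetramer of alpha chains, from Hba-a1 and its near-identical neighbour Hba-a2, and beta chains, from the Hbb-b genes. Slc4a1 encodes band 3, the anion exchanger and main membrane protein of red cells. Gata1 and Klf1 are transcription factors that switch on red cell genes, Gata1 also those of platelet precursors, while Gata2 acts earlier in blood stem and progenitor cells and is also used by mast cells and endothelium. Pf4 and Ppbp are chemokines stored in platelet granules, and Gp9 is a subunit of the platelet receptor for von Willebrand factor. Circulating red cells of adult mice and platelets have no nucleus but carry some RNA.

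The hemoglobin probes are shown here because hemoglobin probes may also read transcripts of close relatives. The Hba-a1 probe (mm9 chr11:32183775-32183956, plus strand) covers 60 bases of transcript and 182 of genome, and so crosses an intron. Its annotation lists RefSeq transcripts of both alpha genes. The Hba-a2 probe overlaps it by 30 bases, in which 3 differ; those are in capitals.
Hba-a1 probe: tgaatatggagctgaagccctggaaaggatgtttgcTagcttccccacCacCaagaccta
Hba-a2 probe: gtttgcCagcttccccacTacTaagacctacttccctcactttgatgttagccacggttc
The Hbb-b1 probes that start at transcript bases 61, 231 and 262 lie on the minus strand at mm9 chr7:110962317-110962376, chr7:110962031-110962090 and chr7:110962000-110962059. The latest symbol for this gene in RefSeq is Hbb-bt. The 29 capital bases below are shared by the probes from bases 231 and 262, so these probes are not independent readings, while the probe from base 61 shares no stretch with them.
Hbb-b1 probe from base 61: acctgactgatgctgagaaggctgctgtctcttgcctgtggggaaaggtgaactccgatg
Hbb-b1 probe from base 231: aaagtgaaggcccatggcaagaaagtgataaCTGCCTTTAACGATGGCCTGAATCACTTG
Hbb-b1 probe from base 262: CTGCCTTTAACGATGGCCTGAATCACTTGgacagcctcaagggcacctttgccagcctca

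The scanner software called 59.7% to 77.0% of an array's probes well above background, and the arrays' 75th percentile lay between 602.8 and 2732.2 intensity units. Every level below is a log2 signal relative to that percentile of its own array, so a level of 0 equals the percentile. Levels of different probes cannot be set against each other. The 14 samples took 16 arrays, because M+133+ untreated sample 1 was hybridized on 2 of them, as was M-133- untreated sample 2, and such repeat arrays were averaged. Prom1 followed the sort labels in every sample, at 0.81 to 2.23 in M+133+ DDC samples against -8.63 to -3.52 in M-133- DDC samples, and at 1.13 to 1.82 in M+133+ untreated samples against -8.35 to -7.74 in M-133- untreated samples.

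**Figure D1:**
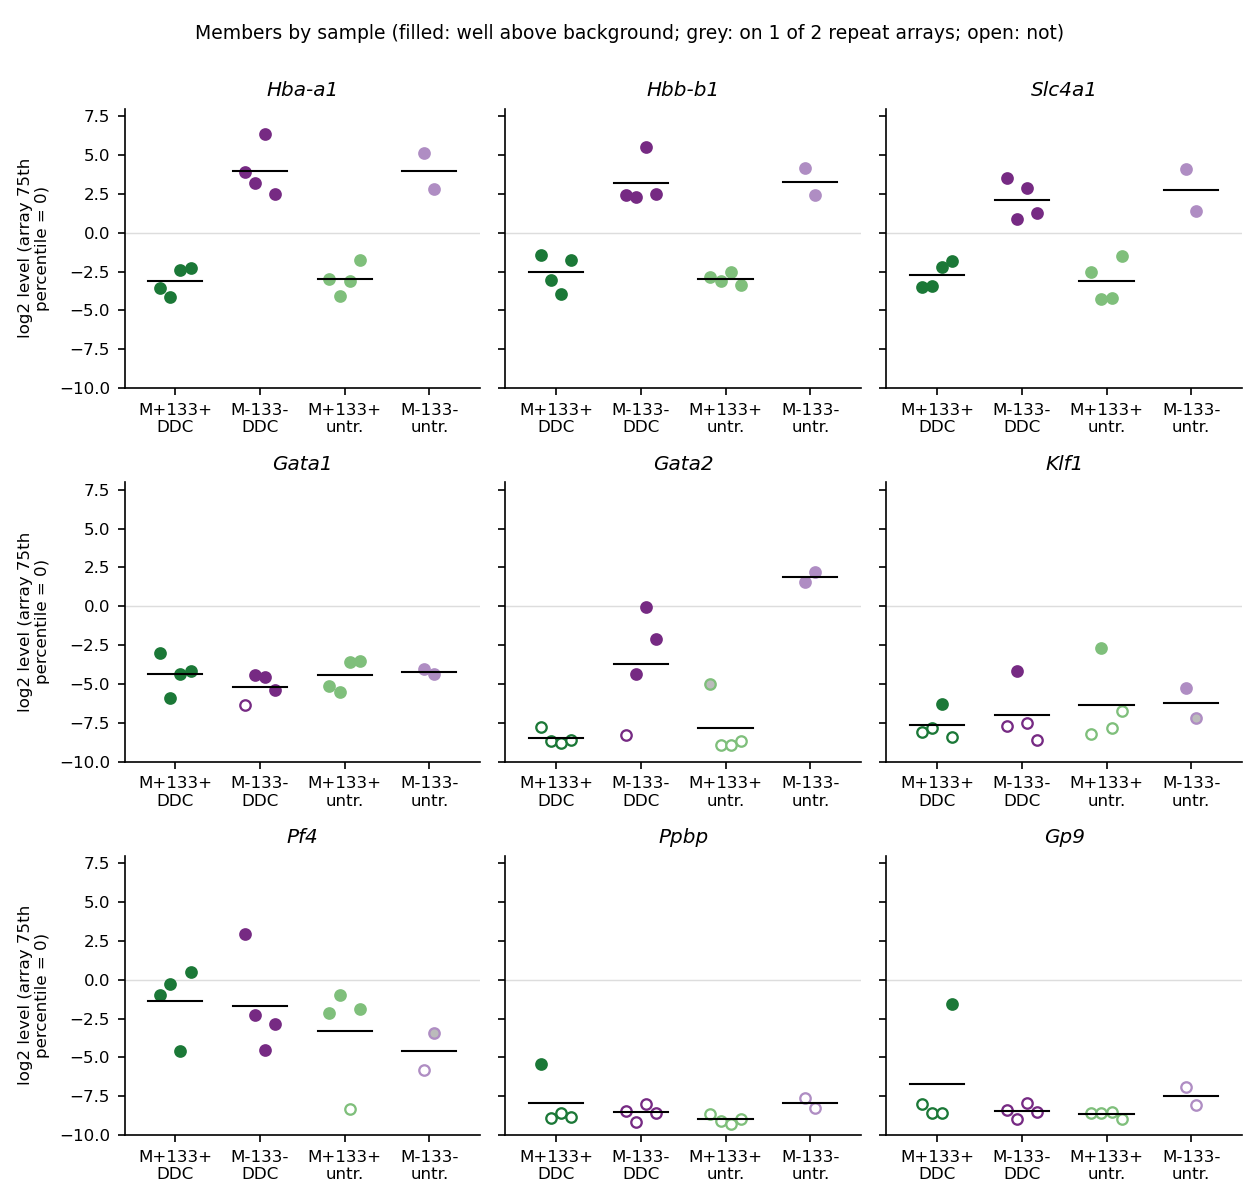
Log2 level of the 9 genes in each of the 14 samples, relative to the array's 75th percentile, with 1 panel a gene (the probe used for the gene) and a black line at the group mean. Filled points were well above background on all arrays of the sample, grey points on 1 of 2 repeat arrays, and open points on none. Hba-a1, Hbb-b1 and Slc4a1 sit below 0 in every M+133+ sample and above 0 in every M-133- sample, while Ppbp and Gp9 are open in all but 1 sample each.

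M+133+ cells held less hemoglobin and band 3 RNA than M-133- cells, in DDC-treated and in untreated livers. In each of these comparisons 4 of the 7 tested genes were called lower and 0 higher by limma at an adjusted p under 0.05: Hba-a1, Hbb-b1, Slc4a1 and Gata2. Gata2 passed the filter on dim probes only through the M-133- groups, which favours a call in this direction, and its call after DDC was not stable. Over all tested genes 6.48% were called lower in M+133+ cells after DDC and 5.16% in untreated livers. The transcription factors Gata1 and Klf1 and the platelet chemokine Pf4 passed in neither comparison. In these bulk samples, fewer blood cells and less blood-cell RNA per cell cannot be told apart.

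Hba-a1 stood at -3.59, -4.12, -2.39 and -2.29 in the M+133+ DDC samples, against 3.89, 3.18, 6.34 and 2.50 in the M-133- DDC samples. In untreated livers it stood at -2.96, -4.09, -3.13 and -1.73 in the M+133+ samples, against 5.11 and 2.83 in the M-133- samples. All 8 M+133+ samples lay below all 6 M-133- samples, as did the M+133+ samples for 7.05% of all genes after DDC and 17.9% in untreated livers. The probe was well above background on all 16 arrays, so it gave a signal in the M+133+ cells as well. Whether that signal came from alpha globin RNA or from cross-reading was not tested. The log2 difference of M+133+ against M-133- cells was -7.08 (SE 0.85, limma adjusted p = 6.76e-05) after DDC, with M+133+ cells 135.1-fold lower. In untreated livers the log2 difference was -6.95 (SE 1.04, adjusted p = 0.000776), with M+133+ cells 123.4-fold lower; without M-133- untreated sample 1 it was -5.81 and without M-133- untreated sample 2 it was -8.09, both still called. M-133- DDC sample 3 held the highest level. The 2 M-133- untreated samples also differed from each other by more than the M+133+ DDC samples did.

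The second alpha gene, Hba-a2, read by its own probe, was lower in M+133+ cells as well. It averaged -3.63 ± 0.30 in M+133+ DDC cells and 3.03 ± 1.75 in M-133- DDC cells (SD, n = 4 each), a log2 difference of -6.66 (SE 0.80, adjusted p = 6.58e-05). Without DDC it averaged -3.03 ± 0.72 in M+133+ cells (n = 4) and 2.97 ± 1.42 in M-133- cells (n = 2), a log2 difference of -6.00 (SE 0.98, adjusted p = 0.00141). With 3 mismatches in 30 shared bases, each alpha probe may read the other gene's transcript.

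The beta globin gene was read at 4 places. On the probe from base 61, the brightest on average and therefore the one used for the gene, Hbb-b1 stood at -1.46, -3.04, -3.92 and -1.75 in M+133+ DDC samples, against 2.43, 2.30, 5.49 and 2.47 in M-133- DDC samples. In untreated livers it stood at -2.84, -3.08, -2.55 and -3.38 in M+133+ samples, against 4.15 and 2.44 in M-133- samples. As for Hba-a1, no M+133+ sample reached any M-133- sample, and M-133- DDC sample 3 was the highest. The log2 difference was -5.72 (SE 0.79, adjusted p = 0.000213), or 52.7-fold lower in M+133+ cells, after DDC, and -6.26 (SE 0.96, adjusted p = 0.000953), or 76.4-fold lower, in untreated livers. Without M-133- DDC sample 3 the difference after DDC was -4.95 for Hbb-b1 and -6.29 for Hba-a1, both still called. The choice of probe was itself unstable: without M+133+ DDC sample 1, M+133+ DDC sample 2 or M+133+ untreated sample 3, the probe from base 262 became the brightest, and the gene's difference after DDC was -8.00, -7.68 or -8.20.

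The fitted beta globin differences were larger on the other probes, in part against M+133+ signals at background. Fitted by probe over 34592 probes, the log2 difference of M+133+ against M-133- DDC cells was -10.11 (SE 1.11, adjusted p = 3.90e-05) for the probe from base 231 and -8.20 (SE 0.87, adjusted p = 2.99e-05) for the probe from base 262. The same fit gave -10.60 (SE 1.36, adjusted p = 0.000278) and -8.24 (SE 1.07, adjusted p = 0.000291) in untreated livers. The probe from base 231 was well above background on only 1 of 4 M+133+ DDC arrays and 1 of 5 M+133+ untreated arrays, so the size of its differences rests on background signal. With normexp background correction it stood at -3.88, -4.83, -2.77 and -4.67 in M+133+ DDC samples, against 3.51, 2.70, 5.84 and 2.58 in M-133- DDC samples, which are closer together. By probe, 5.71% of all probes were called lower in M+133+ cells after DDC and 4.46% in untreated livers. On the probe from base 496 no M+133+ DDC array was well above background. On the processed signals M+133+ DDC cells were therefore at least 346-fold lower there than M-133- DDC cells, with means of -8.53 and 1.69. This bound sets the bright group's mean against the dimmest signal called well above background on each dim array, or the probe's own where that was higher. The limma fit by probe gave -10.22 (adjusted p = 5.36e-05), which rests on background signal, and this adjusted p does not test the bound. Normexp background correction put the probe at -4.09, -5.34, -3.78 and -5.04 in M+133+ DDC samples, against 0.73, 1.52, 2.87 and 1.41 in M-133- DDC samples. Those levels lie closer together than the bound, so the bound depends on the background correction.

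The probes differed most in the M+133+ cells. Those from bases 61 and 262 were well above background on all 9 M+133+ arrays, while the probe from base 496 was so on 0 of 4 M+133+ DDC arrays and 1 of 5 M+133+ untreated arrays. On all 7 M-133- arrays every beta globin probe was well above background. Of the 4, the probes from bases 61 and 496 are annotated with a second RefSeq beta globin transcript; the part of cross-reading in these levels was not tested. M+133+ untreated sample 2 was the untreated M+133+ sample that rose above background on the dim pair, at -4.67 from base 231 and -2.88 from base 496, and M+133+ DDC sample 3 did so from base 231 only, at -3.72.

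**Figure D2:**
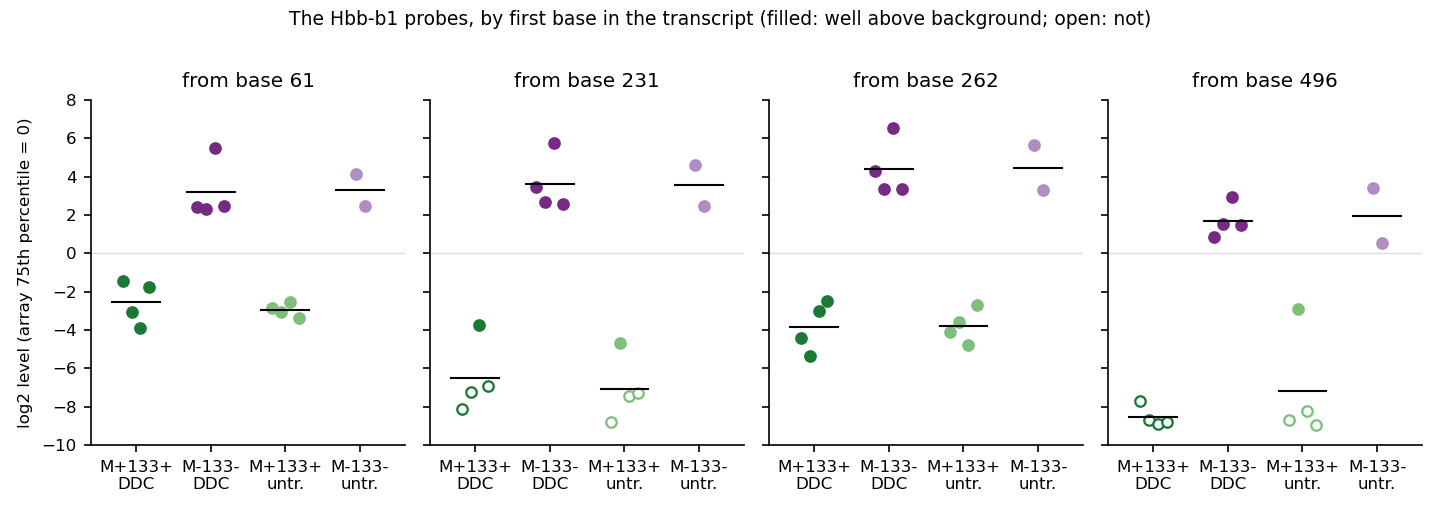
Log2 level of Hbb-b1 in each of the 14 samples on each of its 4 probes, relative to the array's 75th percentile; panels are ordered by the probe's first base in the transcript, black lines are group means, and open points were not well above background. M+133+ samples are lower on every probe, and on the probes from bases 231 and 496 most of them are open.

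Slc4a1 stood at -3.47, -3.46, -2.21 and -1.81 in M+133+ DDC samples, against 3.52, 0.87, 2.86 and 1.26 in M-133- DDC samples. Without DDC it stood at -2.52, -4.24, -4.19 and -1.52 in M+133+ samples, against 4.13 and 1.41 in M-133- samples. The sorts again did not overlap, but the highest M-133- DDC sample was sample 1 here and not sample 3, which led for both hemoglobins. The log2 difference was -4.87 (SE 0.86, adjusted p = 0.00146), or 29.2-fold lower in M+133+ cells, after DDC, and -5.89 (SE 1.05, adjusted p = 0.00257), or 59.3-fold lower, in untreated livers. Without M-133- untreated sample 1 the untreated difference was -4.53 and no longer called. With the number that leads the sample titles as a block, it was -6.13 and not called either (adjusted p = 0.0617). The labels do not give the meaning of this number. In untreated livers the sorts share only the numbers 1 and 1B, so the difference with this block rests on the samples with those numbers.

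The slides, each of several arrays, were not spread evenly over the groups. After DDC no slide held both sorts: M+133+ arrays lay on slides 3 and 4 and M-133- arrays on slides 1, 2 and 5. With the slide as a block, which then compares these sorts by way of the untreated arrays, the differences after DDC were -6.73 for Hba-a1, -5.86 for Hbb-b1 and -3.93 for Slc4a1, and all 3 were called by limma (adjusted p = 0.00495, 0.0192 and 0.0215). In untreated livers the block gave -5.62, -6.13 and -3.90, all called. Slides 2 and 4 each held 1 untreated array of each sort; their M-133- arrays are the repeat arrays of M-133- sample 2, so the slides do not give independent differences. There M+133+ cells differed from M-133- cells by -4.93 and -4.96 for Hba-a1, by -4.68 and -6.26 for Hbb-b1 and by -3.22 and -3.42 for Slc4a1.

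In the authors' deposited table the sort folds run M-133- over M+133+ cells, the other way round, and carry a false discovery rate in percent. In the authors' deposited table Hba-a1 was 128-fold (false discovery rate 0.30%) after DDC and 89.2-fold (0.17%) in untreated livers. For Hbb-b1 the authors' deposited table gave 46.5-fold, 1083-fold, 284-fold and 902-fold after DDC for the probes from bases 61, 231, 262 and 496. For Slc4a1 the authors' deposited table gave 27.8-fold after DDC and 41.9-fold in untreated livers, with rates of 0.51% and 0.61%. In the authors' deposited table, as in the fit by probe, the beta globin fold was smallest for the probe from base 61.

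The hemoglobins and band 3 showed no called change with DDC in either sort. In M+133+ cells 0 of 7 tested genes were called by limma, where 0.24% of all genes were, and 0 had an unadjusted p under 0.05, where 12.5% of all genes did. In M-133- cells 0 of 7 were called, where 1.02% of all genes were, and 1 of the 7, Gata2, had an unadjusted p under 0.05, where 12.8% of all genes did. For the interaction of sort and DDC 0 of 7 were called, against 0.257% of all genes, and again 1, Gata2, had an unadjusted p under 0.05, against 9.99%. For Hba-a1 the log2 difference of DDC against untreated cells was -0.12 in M+133+ cells, with a 95% confidence interval of -1.94 to 1.69, and 0.01 in M-133- cells, with an interval of -2.22 to 2.23. For Hbb-b1 it was 0.42 (-1.26 to 2.10) in M+133+ cells and -0.12 (-2.18 to 1.94) in M-133- cells. For Slc4a1 it was 0.38 (-1.45 to 2.22) in M+133+ cells and -0.64 (-2.89 to 1.61) in M-133- cells. These intervals are wide enough to hold a change of several fold either way. On the 2 slides that held both treatments of M-133- cells, the Hba-a1 difference was -1.22 on slide 1 (1 array against 1) and 2.33 on slide 2 (2 arrays against 1).

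Ordered by group mean, Hba-a1 ran from M-133- DDC cells (3.98 ± 1.68) over M-133- untreated cells (3.97 ± 1.61, n = 2) and M+133+ untreated cells (-2.97 ± 0.97) to M+133+ DDC cells (-3.10 ± 0.90; SD, n = 4 where not given). The groups of one sort overlapped, and the step between the sorts was the only one larger than the spread. For Hbb-b1 on the probe used and for Slc4a1 the M-133- untreated mean was the highest, at 3.30 ± 1.21 and 2.77 ± 1.93, and the M+133+ untreated mean the lowest, at -2.96 ± 0.35 and -3.12 ± 1.33, with the DDC groups in between and overlapping their untreated neighbours.

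**Figure D3:**
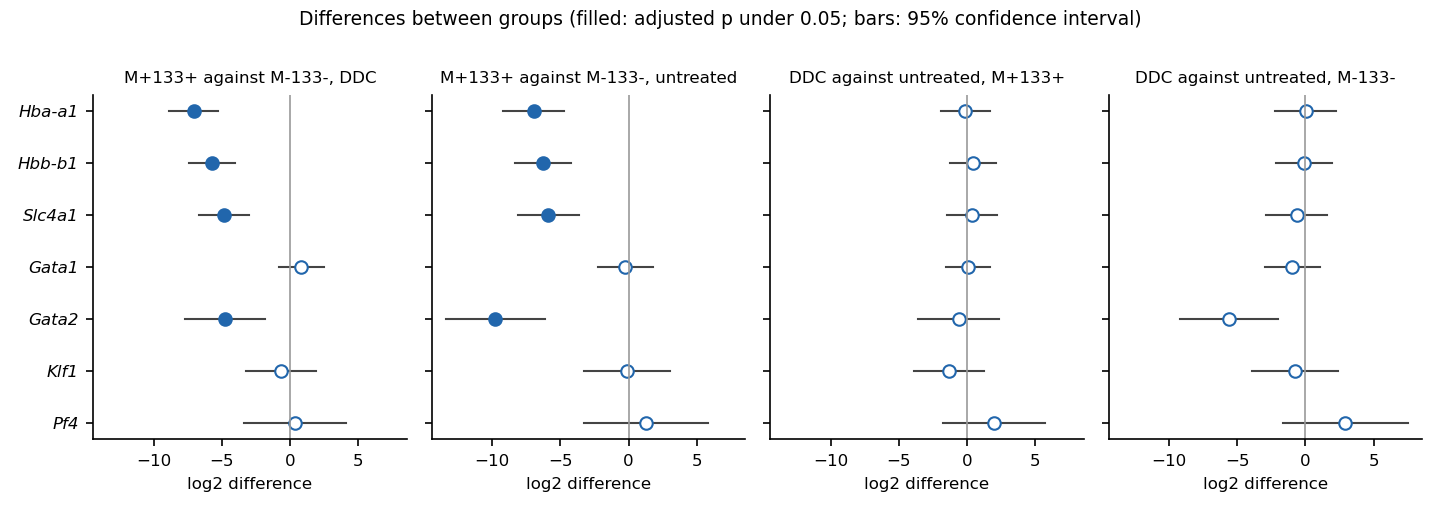
Log2 difference with its 95% confidence interval for the 7 tested genes in 4 comparisons, the first-named group minus the second; filled points had an adjusted p under 0.05 over all 23312 genes. Hba-a1, Hbb-b1, Slc4a1 and Gata2 are filled and left of 0 in both comparisons of the sorts, and no point is filled in either comparison of DDC with untreated cells.

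Gata2 was at background in most M+133+ samples, uneven in M-133- cells after DDC and bright in M-133- cells of untreated livers. After DDC it stood at -7.79, -8.70, -8.81 and -8.62 in M+133+ samples, against -8.31, -4.35, -0.08 and -2.13 in M-133- samples. In untreated livers Gata2 stood at -4.99, -8.91, -8.91 and -8.65 in M+133+ samples, against 1.58 and 2.20 in M-133- samples. It was well above background on 0 of 4 M+133+ DDC arrays against 3 of 4 M-133- DDC arrays, and on 1 of 5 M+133+ untreated arrays against 3 of 3 M-133- untreated arrays. M-133- DDC sample 1 was as dim as the M+133+ samples, so the sorts overlapped after DDC.

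The difference of M+133+ against M-133- cells was called in untreated livers, at a log2 difference of -9.76 (SE 1.70, adjusted p = 0.00216), with means of -7.87 in M+133+ cells and 1.89 in M-133- cells. With 1 of 5 M+133+ untreated arrays well above background, this size rests on background signal, and it ran from -11.29 to -5.88 over the 26 alternatives, all called. After DDC M+133+ cells were at least 8.14-fold lower on the processed signals, but with normexp background correction the log2 difference was -1.89, short of that bound. The fitted difference after DDC, and not the bound, was called by limma: -4.76 (SE 1.39, adjusted p = 0.0341), with means of -8.48 in M+133+ DDC cells and -3.72 in M-133- DDC cells. This call was not stable: the adjusted p was 0.236 with normexp background correction, 0.349 with the slide as a block, 0.0940 with only the second repeat array of each repeated sample, and between 0.0554 and 0.0930 without any one of M+133+ DDC samples 1 to 4 or M-133- DDC samples 3 and 4. The second Gata2 probe, from base 2578, gave a log2 difference of -7.95 (SE 0.94, by-probe adjusted p = 0.000151) in untreated livers, likewise with 1 of 5 M+133+ arrays well above background. After DDC this probe gave a fitted difference of -2.58 (SE 0.77, by-probe adjusted p = 0.0389), with means of -7.80 in M+133+ DDC cells and -5.22 in M-133- DDC cells. On the processed signals the bound was at least 2.79-fold lower, which the adjusted p does not test. With normexp correction the sorts overlapped on this probe, at -3.85, -5.21, -3.71 and -4.78 in M+133+ DDC samples, against -4.30, -4.23, -2.80 and -4.01 in M-133- DDC samples.

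Within M-133- cells both Gata2 probes were dimmer after DDC. On the probe used, the 4 DDC samples lay below both untreated samples, a log2 difference of -5.61 (SE 1.70), which did not pass (adjusted p = 0.153). Over all genes, 12.7% had DDC samples wholly below the untreated samples in these cells. On the second probe Gata2 stood at -6.58, -5.39, -3.41 and -5.48 in M-133- DDC samples, against -0.59 and 0.41 in M-133- untreated samples. That difference, -5.13 (SE 0.94), was called in the fit by probe (adjusted p = 0.0176), where 0.413% of all probes were called lower. With the mean of the 2 probes as the gene's value it was -5.37 (adjusted p = 0.0462). The interaction of sort and DDC was 4.99 (SE 2.19, adjusted p = 0.461) on the probe used, so a difference of the DDC effect between the sorts was not shown. The authors' deposited table gives Gata2 signed folds of -41.7 and -22.2 for DDC against untreated M-133- cells on its 2 probes, with false discovery rates of 24.5% and 13.01%.

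Among cell types that use Gata2, endothelial markers moved with the sort. Of 15 endothelial markers, 13 were called lower and 0 higher in M+133+ cells in each treatment. Their summed level, as a log2 value, was 1.20 to 2.33 in M+133+ DDC samples against 4.32 to 7.17 in M-133- DDC samples. It was 2.47 to 4.29 in M+133+ untreated samples against 8.49 to 9.16 in M-133- untreated samples. In M-133- cells the endothelial sums, like Gata2, were lower after DDC without overlap between the treatments, although 0 of the 15 markers were called there. This was not particular to endothelium. Kupffer cell and macrophage sums also lay lower there, narrowly without overlap, and stellate cell and bile duct sums lay wholly higher. Of all genes, 12.7% lay wholly lower after DDC in M-133- cells. The mean level of the blood stem and progenitor markers did not overlap there either. It was -1.55 to -1.02 in M-133- DDC samples, against -0.12 and 0.63 in M-133- untreated samples. Their summed levels did overlap, at 4.84 to 5.78 and 5.66 to 6.10. Of 8 tested mast cell and basophil markers, 2 were lower and 1 higher in M+133+ cells after DDC, and 2 were lower and 0 higher in untreated livers. Kit is counted both among these markers and among those of blood stem and progenitor cells. The part of any of these cell types in the Gata2 values was not tested.

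Other cell types also differed between the sorts. Of 9 tested hepatocyte markers 8 were called lower in M+133+ cells in each treatment, and of 10 stellate cell markers 9 were lower after DDC and 3 in untreated livers. Of 10 bile duct markers 9 were called higher in M+133+ cells in each treatment. Of 14 Kupffer cell and macrophage markers 1 was lower after DDC, and 2 were lower and 1 higher in untreated livers. Of 4 tested neutrophil markers 0 were called, and of 9 tested blood stem and progenitor cell markers 2 were lower and 0 higher in each treatment. The part of these cells in the hemoglobin and band 3 values was not tested.

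The 2 factors that drive late red cell genes were not called between the sorts. Gata1, on a probe printed on 10 spots of each array, stood at -3.01, -5.94, -4.35 and -4.19 in M+133+ DDC samples, against -6.39, -4.43, -4.55 and -5.38 in M-133- DDC samples. In untreated livers it stood at -5.15, -5.53, -3.60 and -3.51 in M+133+ samples, against -4.07 and -4.34 in M-133- samples. It was well above background on 15 of 16 arrays, and the sorts overlapped in each treatment. The log2 difference of M+133+ against M-133- cells was 0.82 (95% interval -0.83 to 2.46, adjusted p = 0.559) after DDC and -0.24 (-2.26 to 1.78, adjusted p = 0.944) in untreated livers. The SD over the Gata1 spots used was 0.05 to 0.58 on 15 arrays and 1.44 on the first array of M-133- untreated sample 2. In the authors' deposited table the 10 Gata1 spots had signed folds of M-133- over M+133+ cells between -1.24 and 1.49 after DDC and between -1.46 and 1.96 in untreated livers.

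Klf1 was well above background on 5 of 16 arrays, and each group held at least 1 of them. It stood at -8.11, -7.85, -6.29 and -8.41 in M+133+ DDC samples, against -7.73, -4.20, -7.53 and -8.62 in M-133- DDC samples. Without DDC Klf1 stood at -8.22, -2.66, -7.82 and -6.72 in M+133+ samples, against -5.23 and -7.23 in M-133- samples. The highest value was that of M+133+ untreated sample 2, the sample that also rose above background on the dim Hbb-b1 probes. The log2 difference of M+133+ against M-133- cells was -0.64 (95% interval -3.23 to 1.94, adjusted p = 0.795) after DDC and -0.12 (-3.28 to 3.04, adjusted p = 0.981) in untreated livers. Most of these values are at background, so a difference below that level was not detectable.

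Among Pf4, Ppbp and Gp9, only Pf4 was measured in most samples, well above background on 13 of 16 arrays. It stood at -0.97, -0.30, -4.57 and 0.48 in M+133+ DDC samples, against 2.97, -2.27, -4.55 and -2.88 in M-133- DDC samples. Without DDC Pf4 stood at -2.12, -0.98, -8.32 and -1.91 in M+133+ samples, against -5.79 and -3.43 in M-133- samples. The ranges of every pair of groups overlapped. The log2 difference of M+133+ against M-133- cells was 0.34 (95% interval -3.39 to 4.07, adjusted p = 0.934) after DDC and 1.28 (-3.29 to 5.85, adjusted p = 0.843) in untreated livers. DDC against untreated cells differed by 1.99 (-1.74 to 5.72, adjusted p = 0.707) in M+133+ cells and by 2.93 (-1.64 to 7.50, adjusted p = 0.649) in M-133- cells.

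Ppbp and Gp9 were each well above background on 1 array of 16. For Ppbp it was M+133+ DDC sample 1, at -5.41, with the other 13 samples between -9.26 and -7.64. For Gp9 it was M+133+ DDC sample 4, at -1.57, with the other 13 samples between -8.95 and -6.94. Pf4 was well above background in both of these samples too, at -0.97 and 0.48, but also in samples where Ppbp and Gp9 were not. Neither gene was tested, and the arrays give no level for them below background.

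Repeat arrays of a sample show how far a single reading can be trusted. For the hemoglobins, band 3 and Gata1 the repeat arrays differed by 0.11 to 1.73 on the log2 scale, well under the differences between the sorts of the genes called. For the Gata2 probe used, M+133+ untreated sample 1 read -8.72 on the first array and -1.26 on the second, while the other Gata2 probe read -6.29 and -8.69 on the same arrays. For Pf4, M-133- untreated sample 2 read -6.54 and -0.31. Among all probes kept, 1.76% differed by more than 5 between the repeat arrays of the M+133+ sample, and 3.86% between those of the M-133- sample.

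**Figure D4:**
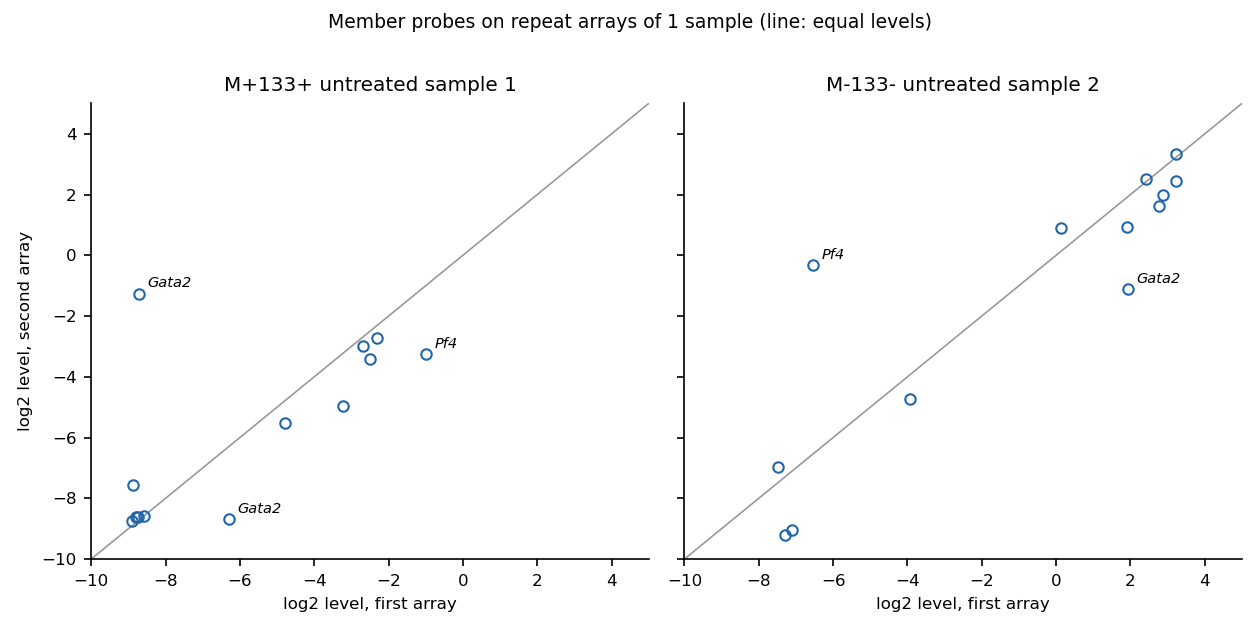
Log2 level of the 13 probes on the second against the first repeat array, for M+133+ sample 1 and for M-133- sample 2 of untreated livers, with the line of equal levels; probes that differ by more than 2 are named. Most points lie near the line, and the farthest are Gata2 in the first sample and Pf4 in the second, which differed by 7.46 and 6.23.

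Further genes of red cells and platelets, in 6 lists of 102 names of which 95 were tested, were mostly not called. In M+133+ against M-133- cells 15 were lower and 5 higher after DDC, and 13 were lower and 3 higher in untreated livers. Among all genes 6.48% were called lower and 6.44% higher after DDC, and 5.16% lower and 3.63% higher in untreated livers. The median log2 difference of all genes was 0.31 after DDC and -0.07 in untreated livers. Called in both comparisons were 8 genes, 6 of them lower in both: Hba-a2, Ahsp, Gypc, Fli1, Clec1b and Selp.

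Among the other hemoglobin genes and the alpha chain's partner, 2 of 7 tested were lower in each treatment, with medians of -0.11 after DDC and -0.73 in untreated livers. They were Hba-a2, given above, and Ahsp, the chaperone that holds free alpha globin. Ahsp averaged -6.20 ± 1.39 in M+133+ DDC cells and 0.72 ± 0.95 in M-133- DDC cells (SD, n = 4 each), a log2 difference of -6.92 (SE 0.80, adjusted p = 4.77e-05). Without DDC it averaged -7.07 ± 0.69 in M+133+ cells and 1.29 ± 1.23 in M-133- cells, a log2 difference of -8.36 (SE 0.98, adjusted p = 0.000121). Ahsp was well above background on 2 of 4 M+133+ DDC arrays and 1 of 5 M+133+ untreated arrays, so the size of both differences rests in part on background signal. The embryonic chains Hbb-y and Hbb-bh1 were not called, with differences of -0.14 and -0.11 after DDC, and neither was Hba-x, which was not well above background on any M-133- DDC array.

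Of 19 red cell membrane genes, 2 were lower and 0 higher in M+133+ cells after DDC, and 2 were lower and 1 higher in untreated livers, with medians of -0.92 and -1.59. Gypc, the glycophorin that ties the membrane to its skeleton, was lower by log2 differences of -4.30 (adjusted p = 0.0166) and -5.19 (adjusted p = 0.0252). Aqp1 is a water channel that red cells share with bile duct cells and endothelium. After DDC it was lower in the M+133+ sort (-3.93, adjusted p = 0.00408). In untreated livers Ermap, a red cell surface protein, was lower (-6.20, adjusted p = 0.0416), and Tmod1, which caps actin filaments in several tissues, was higher (6.81, adjusted p = 0.00755), with 1 of 3 M-133- untreated arrays well above background.

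Of 16 genes of heme synthesis, iron handling and red cell enzymes, 5 were lower and 2 higher in M+133+ cells after DDC, with a median of -1.37. In untreated livers 3 were lower and 0 higher, with a median of -1.11. Alas2, the first enzyme of heme synthesis in red cells and the form that other cells lack, averaged -4.28 ± 1.67 in M+133+ untreated cells and 1.59 ± 0.65 in M-133- untreated cells, a log2 difference of -5.87 (adjusted p = 0.00482). After DDC its difference was -2.91 and was not called (adjusted p = 0.0547). The enzymes Urod (-2.43, adjusted p = 0.00432) and Cpox (-1.22, adjusted p = 0.0130) act in heme synthesis of all cells. Both had lower levels in the M+133+ sort of DDC-treated livers. Between the same sorts Fech, the target of DDC, differed the same way (-1.63, adjusted p = 0.0224), and was picked for naming after its value was seen. For DDC against untreated cells Fech was not called. Its differences were -0.22 (adjusted p = 0.900) in M+133+ cells and 0.41 (adjusted p = 0.832) in M-133- cells. Tfrc, the transferrin receptor (2.46, adjusted p = 0.00261), was higher in the M+133+ sort of DDC-treated livers. So was Car2, a carbonic anhydrase also of duct cells (2.86, adjusted p = 0.000943). In untreated livers the mitochondrial iron importer Slc25a37 (-3.07, adjusted p = 0.0334) and the red cell carbonic anhydrase Car1 (-3.33, adjusted p = 0.0117) were lower.

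**Figure D5:**
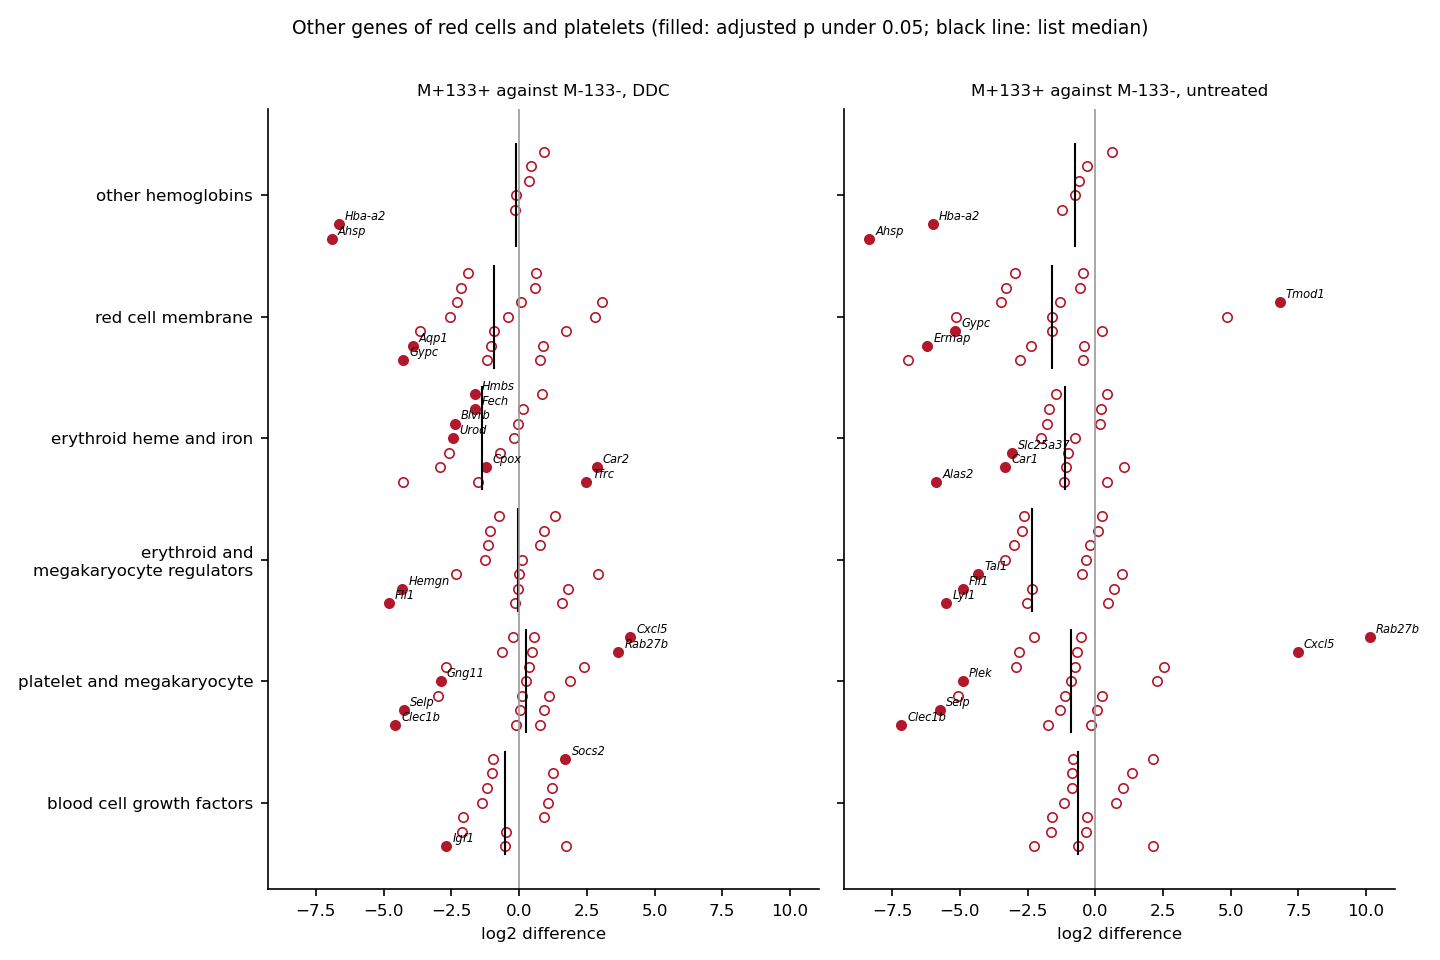
Log2 difference of M+133+ against M-133- cells for the 95 tested genes of 6 lists, after DDC and in untreated livers; each point is a gene, filled and named where the adjusted p was under 0.05, and the black line is the list's median. The list of other hemoglobins includes the globin chaperone Ahsp. Filled points lie on both sides of 0, and most points are open.

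Of 17 regulators of red cell and platelet formation, 2 were lower and 0 higher in M+133+ cells after DDC, with a median of -0.05, and 3 were lower and 0 higher in untreated livers, with a median of -2.35. Fli1, a factor of platelet precursors and endothelium, was lower in both (-4.81, adjusted p = 0.0114, and -4.89, adjusted p = 0.0434), with 2 of 4 M+133+ DDC arrays well above background. Hemgn, a nuclear protein of red cell precursors, was lower in the M+133+ sort after DDC (-4.33, adjusted p = 0.00441). Tal1 (-4.33, adjusted p = 0.0322) and Lyl1 (-5.50, adjusted p = 0.0188), related factors of blood and endothelial cells, were lower in untreated livers. Epor, the erythropoietin receptor, was not called, with differences of -0.74 after DDC and -2.71 in untreated livers.

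Of 21 tested platelet and megakaryocyte genes, 3 were lower and 2 higher in M+133+ cells in each treatment, with medians of 0.25 after DDC and -0.90 in untreated livers. Clec1b, a platelet receptor that mouse liver sinusoidal cells also express, was lower in both (-4.58, adjusted p = 0.00401, and -7.17, adjusted p = 0.00122). Selp, the adhesion protein P-selectin of platelets and endothelium, was lower in both (-4.25, adjusted p = 0.0392, and -5.74, adjusted p = 0.0327). Gng11 was lower in the M+133+ sort after DDC (-2.90, adjusted p = 0.00827). Plek, a kinase substrate of platelets and leukocytes, was lower in that sort in untreated livers (-4.90, adjusted p = 0.0260). The receptor subunits Itga2b, Gp1ba and Gp6, which are close to platelet-restricted, were not called, with differences of 0.020, 0.095 and 0.93 after DDC and 0.25, -0.76 and -0.16 in untreated livers.

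The genes of this list that were higher in M+133+ cells were Rab27b, which guides the release of platelet granules and of granules in epithelial cells, and the chemokine Cxcl5. Rab27b averaged 2.68 ± 0.50 in M+133+ DDC cells and -0.98 ± 1.01 in M-133- DDC cells (SD, n = 4 each), a log2 difference of 3.66 (adjusted p = 0.000426). It averaged 3.24 ± 0.35 in M+133+ untreated cells and -6.90 ± 0.37 in M-133- untreated cells, where no array had it well above background. On the processed signals M+133+ untreated cells were thus at least 560.0-fold higher, and the fitted log2 difference was 10.13 (limma adjusted p = 1.77e-06). The level of Rab27b was at least 30.1-fold higher in M-133- DDC cells than in M-133- untreated cells, with a fitted difference of 5.91 (adjusted p = 0.000534). These adjusted p values belong to the fitted differences and not to the bounds. The interaction of sort and DDC was called for Rab27b (-6.47, SE 0.87, adjusted p = 0.00436). Cxcl5 was higher by 4.10 (adjusted p = 0.0407) after DDC and by 7.48 (adjusted p = 0.00603) in untreated livers, where 1 of 3 M-133- arrays had it well above background. In M-133- cells, Car1 was the one gene of the 95 called lower with DDC (-3.35, adjusted p = 0.0491) and Rab27b the one called higher, and in M+133+ cells 0 were called.

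Of 15 genes of blood cell growth factors and their signalling, 1 was lower and 1 higher in M+133+ cells after DDC and 0 were called in untreated livers, with medians of -0.53 and -0.66. Igf1, a growth factor made in liver, was lower (-2.69, adjusted p = 0.00515), and Socs2, an inhibitor of growth factor signalling, was higher (1.71, adjusted p = 0.0162). Epo, the hormone that drives red cell formation, had differences of -0.53 after DDC and -0.85 in untreated livers. Thpo, which drives platelet formation, had differences of -2.09 and -0.83, and neither was called.

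The genes whose levels over the 14 samples ran most like those of the hemoglobins were sought among 16832 named genes, by the mean absolute difference of levels after each gene's own mean was taken off. For Hba-a1 they were Nid2 (0.60), a basement membrane protein, and Hba-a2 (0.64), with Hbb-b1 at rank 8 and Slc4a1 at rank 10 (0.94 and 0.95). For Hbb-b1 they were Mreg (0.58) and Glyat (0.61), a liver enzyme, and for Slc4a1 they were Mreg (0.65) and Aldh1l1 (0.73), an enzyme of folate metabolism. Hba-a1 and Slc4a1 lay at ranks 18 and 71 from Hbb-b1, and Hba-a1 and Hbb-b1 at ranks 9 and 30 from Slc4a1. From Hba-a1, Gata2 lay at rank 531 and Gata1 at rank 10394. Nid2, Mreg, Glyat and Aldh1l1 were, like the hemoglobins, called lower in M+133+ cells in both treatments, and all values compared come from the same arrays.

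For Gata2 the most alike were Hoxb2 (1.15) and Cnr2 (1.28), at distances larger than those of the hemoglobins' neighbours. Cnr2, a cannabinoid receptor, was lower in M+133+ cells, with log2 differences to M-133- cells of -4.69 (adjusted p = 0.00245) after DDC and -8.38 (adjusted p = 0.000278) in untreated livers. The most alike to Gata1 were Tsga13 (0.35) and Olfr148 (0.36), to Klf1 H1f6 (0.77) and Fibcd1 (0.89), and to Pf4 Mast2 (1.35) and Tiam2 (1.38). None of these 6 genes was called between the sorts.

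The hemoglobin promoters are shown because the alpha and beta genes moved together between the sorts. Any part of these promoters in the measured levels was not tested. Sequences are from RefSeq on GRCm38.p6, a later build than that of the probe positions, and run over the 250 bases before the start of transcription. RefSeq's table held promoters of 8 of the 9 genes, and Slc4a1 was not in it. Capitals mark the words searched on both strands: AGATAA, also with T as its start or G as its end (bound by GATA factors), CACCC (bound by Klf1 and its relatives) and CCAAT.
Hba-a1 promoter, chr11:32283422-32283671, plus strand: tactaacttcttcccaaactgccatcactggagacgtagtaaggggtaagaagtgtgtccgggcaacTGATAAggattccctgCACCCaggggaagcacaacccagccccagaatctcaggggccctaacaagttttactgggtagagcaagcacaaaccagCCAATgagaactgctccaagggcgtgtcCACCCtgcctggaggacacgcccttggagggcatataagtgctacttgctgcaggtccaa
Hbb-bt promoter, chr7:103813924-103814173, minus strand: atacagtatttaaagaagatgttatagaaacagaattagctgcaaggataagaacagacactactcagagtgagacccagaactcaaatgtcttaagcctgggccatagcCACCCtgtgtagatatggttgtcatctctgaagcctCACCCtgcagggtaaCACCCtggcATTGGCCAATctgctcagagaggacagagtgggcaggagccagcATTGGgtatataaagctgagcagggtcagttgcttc

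The Hba-a1 promoter held 1 GATA word at 183 bases before the start, 2 CACCC words at 167 and 60 bases, and 1 CCAAT at 88 bases. The Hbb-bt promoter held 0 GATA words, 3 CACCC words at 140, 104 and 89 bases, and 3 CCAAT words, of which those at 80 and 36 bases lie on the other strand and 1 at 75 bases on the gene's strand. Of 32851 promoters of this length, 26.5% held a GATA word, 52.0% a CACCC and 33.8% a CCAAT. The Hba-a1 and Hba-a2 promoter entries of 300 bases shared an unbroken run of 297. Among the other genes Klf1 held all 3 kinds of word, 1 of each. Ppbp held none of them, and neither did 1 of the 2 Gata2 promoters.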

How the data were processed

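Per the labels' protocols, cells were sorted into Trizol LS, and their RNA was made into amplified cDNA that carried Cy3; per the file headers the Agilent arrays were read in 1 colour. The deposited array files give spot intensities, processed (background-subtracted and detrended) by Agilent Feature Extraction 10.5.1.1 per the file headers, and annotated on mm9. A table deposited by the authors gives 2 kinds of score per comparison, a signed linear fold and a false discovery rate in percent. The submitters' processing notes name limma; how those values were normalized is not given in the sources used here.

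From the processed signals, log2 values were taken and each array's 75th percentile subtracted. Spots flagged as outliers were left out, and repeat spots, then repeat arrays, were averaged. A probe was kept if well above background in at least 0.5 of the samples of 1 group (34592 of 41174 probes), and the brightest kept probe stood for its gene. Names came from the RefSeq table of GRCm38.p6 by accession (26690 probes), symbol (5189) or synonym (952), and otherwise from the file (8343). Limma 3.58.1 in R 4.3.3 fitted all 14 samples with 1 mean a group and empirical Bayes variances that follow a trend over intensity; tests were two-sided. A call is an adjusted p under 0.05 (Benjamini-Hochberg, 23312 genes). SE is the moderated standard error. The series' design text counts the samples as biological replicates, without saying whether each is 1 animal.

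The members, lists and tests were chosen with earlier results of these data known. Named were all members, the called genes of each list with the smallest adjusted p (up to 4 a list and comparison), and the 2 genes most like each tested member; other names were chosen after their values were seen. Tested on simulated data over 23312 genes, 80% of 64-fold and 10% of 4-fold changes between the sorts after DDC were recovered, 77% and 9% between the untreated sorts, 80% and 13% for DDC in M+133+ cells, 71% and 7% in M-133- cells, and 46% and 1% for the interaction. Alternatives were quantile normalization, normexp background correction, no or a stricter filter, the mean of a gene's probes, a fit by probe, no trend, blocks for slide, replicate number and title number, 1 repeat array only, and leaving out each sample. Some genes of the lists are counted but not reported here by name.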

Additional observations from a re-analysis of the deposited data

Results flagged for a closer look

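Of 27 groups of 4 samples examined, 6 held a sample far from its others by Dixon's test at the 95% level, which chance alone gives in about 1 of 20 groups. On the probe used, Hbb-b1 stood at 5.49 in M-133- DDC sample 3, with the other 3 samples of that group between 2.30 and 2.47; the same sample was the highest of its group for Hba-a1, at 6.34, and on the other 3 Hbb-b1 probes, but not for Slc4a1. Gata2 stood at -4.99 in M+133+ untreated sample 1, with the others between -8.91 and -8.65, and this value is the mean of repeat arrays that read -8.72 and -1.26. Pf4 stood at -8.32 in M+133+ untreated sample 3, not well above background, with the others between -2.12 and -0.98.

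Both platelet genes that were at background elsewhere had 1 high sample each, and not the same one. Ppbp stood at -5.41 in M+133+ DDC sample 1, with the others of the group between -8.89 and -8.61, and Gp9 stood at -1.57 in M+133+ DDC sample 4, with the others between -8.60 and -8.02. Gp9 stood at -8.95 in M+133+ untreated sample 4, with the others between -8.59 and -8.52, and all 4 of those were not well above background, so their order has no meaning.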

How the results depend on the processing

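The lower levels of Hba-a1 and Hbb-b1 in M+133+ cells were called under all 26 alternatives in both treatments, with log2 differences after DDC of -7.57 to -6.29 for Hba-a1 and -8.56 to -4.95 for Hbb-b1, and in untreated livers of -8.09 to -5.62 and -8.57 to -5.40. The width for Hbb-b1 comes in part from the probe rule, which took the probe from base 262 in place of that from base 61 when any one of 3 M+133+ samples was left out. Slc4a1 was called under all 26 after DDC; in untreated livers its adjusted p was 0.0805 once sample 1 of the M-133- cells was left out, and it lost its call with the title's lead number as a block (-6.13, adjusted p = 0.0617). Gata2 was called under all 26 in untreated livers. After DDC it lost its call with normexp correction (-1.89), with the slide as a block (-3.76), with the second repeat array only (adjusted p = 0.0940) and without any one of 6 samples. Of the 7 tested genes, 3 to 4 were thus called between the sorts in each treatment when single samples were left out, and 0 in the other comparisons. Where probes of a gene were averaged, 1 of the 7 was called for DDC in M-133- cells (Gata2), against 0 otherwise. The causes of the lost and gained calls were not tested.

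The replicate numbers showed little sign of pairing samples: deviations of same-numbered samples correlated at -0.06 to 0.08 across genes. The 2 M-133- untreated samples deviate from their mean by equal and opposite amounts, so the correlations that involve them are not independent. For the number that leads the titles, which the labels do not explain, the correlations were -0.01 to 0.11, above 0.1 for 1 of 6 pairs. After DDC the sorts share every such number, but in untreated livers only 1 and 1B, so this block leaves the other M+133+ untreated samples without a partner. With the replicate block, calls over all genes numbered 2711 instead of 3011 between the sorts after DDC, 1525 instead of 2050 in untreated livers, 20 instead of 56 for DDC in M+133+ cells and 115 instead of 237 in M-133- cells. Of the 7 genes, 3 were called after DDC and 4 in untreated livers with that block, since Gata2 lost its call after DDC (adjusted p = 0.0611). With the slide as a block, which holds no pair of sorts after DDC, 1143 genes were called between them. Between the untreated sorts 822 were called with the title number as a block, and 842 or 1213 without sample 1 or 2 of the M-133- cells. For DDC in M+133+ cells (56) there were 138 with quantile normalization, 91 with the stricter filter, 87 with averaged probes, 22 with no trend, 15 with the slide block and 6 to 119 without single samples. For DDC in M-133- cells (237; 143 higher and 94 lower) there were 144 with the slide block and 82 without M-133- sample 1 of the untreated livers, and the split was 163 higher and 53 lower with quantile normalization, 111 and 158 with normexp, 137 and 136 with averaged probes and 167 and 169 with the first repeat array only. For the interaction (60) there were 38 with normexp, 37 with no trend, 11 with the slide block, 24 with the replicate block, 1 with the title number and 18 to 110 without single samples. With quantile normalization the median of all genes between the sorts after DDC was -0.05 instead of 0.31, and with normexp that of the untreated sorts was -0.52 instead of -0.07 (529 higher and 1239 lower, against 847 and 1203), and in M-133- cells DDC against untreated moved to 0.07 and -0.76, against -0.36. The title number could not be fitted as a block for DDC against untreated cells, since each number lies in 1 treatment.

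Depth here is signal over background: Klf1, Ppbp, Gp9, 2 of 4 Hbb-b1 probes and Gata2 lay at background in most M+133+ samples, and with 2 M-133- untreated samples the precision of any comparison with them is limited.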
